A study of Mus musculus with 4 samples.

Results

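The cell cycle cyclins described here are 8 genes, Ccnd1, Ccnd2, Ccnd3, Ccne1, Ccne2, Ccna2, Ccnb1 and Ccnb2, taken by name from the 13772 genes measured in single mouse muscle stem cells, and all 8 were in the tables. Muscle stem cells of wild-type C57BL/6 mice, young or aged, were grown for 7 days on polydimethylsiloxane, a silicone whose stiffness can be set, at 12 kPa (soft) or 29 kPa (stiff). All cells were kept in DMEM with fetal bovine serum and were read by droplet single-cell RNA sequencing with a 3' chemistry. Each of the 4 combinations of age and stiffness was 1 library, and the ages and the number of mice are not given in the sources used here. The question of the design is how substrate stiffness and donor age shape these cells. With 1 library per group, differences between libraries had no replicate check and no test.

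Cyclins are regulatory subunits that switch on cyclin-dependent kinases. D-type cyclins couple growth signals to Cdk4 and Cdk6 in G1, E-type cyclins activate Cdk2 at the start of DNA replication, cyclin A2 acts from S phase to early mitosis, and B-type cyclins drive entry into mitosis with Cdk1. In muscle, progenitors leave the cell cycle for good before they fuse, and cyclin D3 is known to stay on in differentiating myocytes, where it holds the retinoblastoma protein.

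The B-type cyclins are known to be transcribed late in the cycle through promoters with repeated CCAAT boxes, which bind NF-Y, and CHR elements, which bind the MuvB complexes. RefSeq promoters on GRCm38.p6 were found for 4 of the 8 genes (Ccnd3, Ccne1, Ccnb1 and Ccnb2). The 250 bases before the start site are shown for the B-type cyclins, which were both higher in Mki67-positive cells below, with CCAAT and the CHR letters TTTGAA in capitals. Ccnb1 lies at chr13:100786487-100786736 and Ccnb2 at chr9:70421555-70421804, both on the minus strand.
Ccnb1: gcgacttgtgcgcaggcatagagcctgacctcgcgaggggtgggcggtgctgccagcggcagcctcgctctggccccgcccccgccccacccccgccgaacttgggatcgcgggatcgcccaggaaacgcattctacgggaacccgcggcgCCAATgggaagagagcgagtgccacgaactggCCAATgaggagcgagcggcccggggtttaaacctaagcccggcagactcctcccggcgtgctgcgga
Ccnb2: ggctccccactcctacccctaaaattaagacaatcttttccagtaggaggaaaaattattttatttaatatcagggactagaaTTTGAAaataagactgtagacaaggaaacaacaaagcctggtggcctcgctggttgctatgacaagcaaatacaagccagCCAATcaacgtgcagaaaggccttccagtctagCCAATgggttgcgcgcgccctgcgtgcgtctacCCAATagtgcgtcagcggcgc
Ccnb1 held CCAAT at positions -99 to -95 and -67 to -63 from the start site and no TTTGAA in this window. TTTGAA was the only CHR spelling searched, so its absence does not mean that Ccnb1 lacks a CHR. A match of letters likewise does not show a working element. Ccnb2 held CCAAT at -87 to -83, -54 to -50 and -21 to -17, and TTTGAA at -167 to -162. Of 32851 promoter windows of this length searched on both strands, 33.8% held a CCAAT, 10.1% at least 2, 2.79% at least 3, and 16% a TTTGAA. Ccne1 held none of these letters, and Ccnd3 held a CCAAT at -108 to -104 of the second of its 2 start sites. The E2F letters TTTCCCGC, TTTGGCGC, TTTCGCGC and TTTGCCGC, found in 1.86% of all windows, were in none of the windows of the 4 genes. No other E2F spelling and no bases after the start site were searched, so this does not mean that these genes lack E2F sites.

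The tables kept 1360 cells in young soft, 1479 in young stiff, 1333 in aged soft and 1738 in aged stiff, and values for the 4 libraries are given in this order throughout. Median depth was 35606, 28611, 33315 and 37081 UMIs, and a UMI is 1 captured RNA molecule. The value of a gene in a cell is its CPM, the UMIs of a gene scaled to a common total over all genes of that cell, and a level is the mean CPM over cells. The defining progenitor marker Pax7 stood at 72.7, 66.2, 41.8 and 32.0 CPM. All 8 listed progenitor markers were in the tables and summed to 4643, 4998, 6053 and 6604 CPM. The summed list was thus higher in the aged libraries, while Pax7 was lower. The list includes Des, which is also among the contractile genes scored below, so its sum does not measure progenitors alone. It was 3125, 3295, 3454 and 3582 CPM in cells with Mki67 and 5199, 5531, 6337 and 6862 CPM in cells without. The 8 listed markers of differentiating myocytes summed to 26610, 29238, 45266 and 51199 CPM, so every library held differentiating cells and the aged ones more of their RNA. Markers of other cell types were low: the summed endothelial list reached at most 0.202 CPM, the Schwann list 2.19, the immune list 6.19 and the fibro-adipogenic list 16.3, with Ptprc, Pdgfra, Cd34, Myh11 and Sox10 under 1 CPM in every library. The smooth muscle and pericyte list (25.7 to 65.4 CPM) was mostly Notch3, and Lyz2 of the immune list was at 0.244, 0.15, 4.92 and 5.10 CPM. A single cell barcode was shared by young soft and aged stiff and none by the other pairs.

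Mki67, which marks cycling cells, was found in 365, 353, 131 and 137 cells. These were 26.8% (95% exact binomial interval 24.5 to 29.3), 23.9% (21.7 to 26.1), 9.83% (8.28 to 11.6) and 7.88% (6.66 to 9.25) of the cells, and intervals here and below cover counting error only. The aged libraries therefore held a smaller share of Mki67-positive cells, and their intervals did not overlap those of the young. After every cell was thinned to 10000 UMIs the shares were 23.1%, 21.5%, 7.72% and 6.57%. Mki67-positive cells had median depths of 34587, 28523, 28769 and 28383 UMIs, against 35937, 28656, 33966.5 and 37697 in Mki67-negative cells.

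Between Mki67-positive and Mki67-negative cells, 7 of the 8 cyclins were higher in the positive class, in each of the 4 libraries, and Ccnd2 was not called. The call of Ccnd1 was lost when both classes were limited to cells of low contractile gene content. The test was limma on log2(mean CPM + 5) of the classes, with the library as block, and differences are on that log2 scale, which understates low genes. Of 9545 genes tested, 50.0% were higher in Mki67-positive cells and 25.3% lower at an adjusted p under 0.05, so a call alone was common, and 10.9% were higher and 6.18% lower by at least 2-fold. The median difference of the 8 cyclins was 2.94 and that of all genes tested 0.18. The largest differences were those of the A- and B-type cyclins, the middle ones those of the E-type, and the D-type were the smallest.

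**Figure D1:**
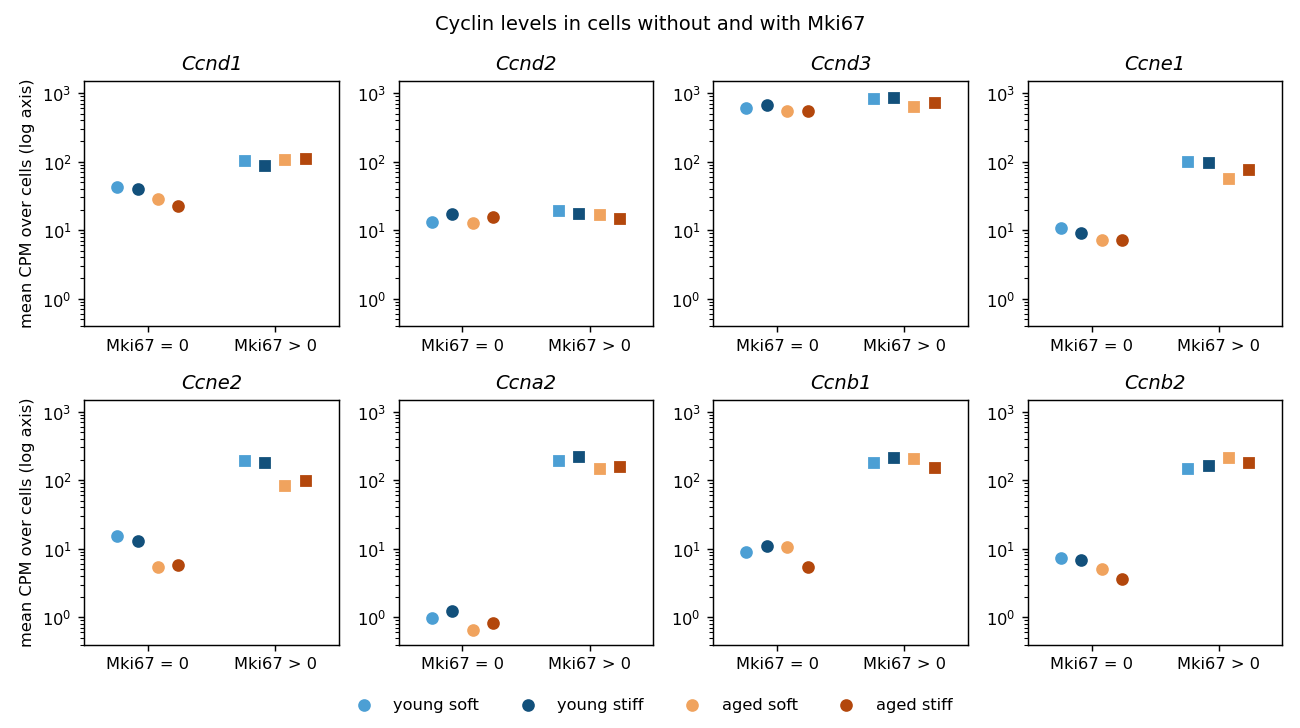
Mean CPM (log axis) of each cyclin in Mki67-positive and Mki67-negative cells, 1 point per library and class. Ccna2 lies at or under 1.25 CPM in all 4 negative points, while Ccnd3 lies above 500 in every point.

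Ccnd1, the D-type cyclin most responsive to growth factors, stood at 101, 86.8, 105 and 109 CPM in Mki67-positive cells. In Mki67-negative cells it stood at 43.0, 39.8, 28.9 and 22.9 CPM. The classes did not overlap, and the aged libraries had the lowest negative values and the highest positive values. The difference was 1.47 (95% interval 1.1 to 1.85, limma adjusted p = 0.000112, higher in 4 of 4 libraries), and by library 1.14, 1.04, 1.70 and 2.03. Between the classes within cells of low contractile gene content, described below, it was 0.14 with a limma adjusted p of 0.157.

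Ccnd2, a further partner of Cdk4 and Cdk6, was low in both classes, at 19.2, 17.2, 16.5 and 14.6 CPM in Mki67-positive and 13.3, 16.9, 12.9 and 15.7 CPM in Mki67-negative cells. The classes overlapped, and in aged stiff the negative class was the higher. The difference was 0.15 (-0.07 to 0.37, limma adjusted p = 0.175, higher in 3 of 4 libraries). With limma voom on summed UMIs, which weights each cell by its depth, it was 0.65 (adjusted p = 0.00126).

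Ccnd3 was the D-type cyclin with the most UMIs, at 809, 851, 622 and 711 CPM in Mki67-positive cells. Mki67-negative cells kept 605, 667, 541 and 554 CPM. Within each library the positive class was higher, but the young negative cells and the aged soft positive cells overlapped. The difference was 0.33 (0.22 to 0.45, limma adjusted p = 0.000552, higher in 4 of 4 libraries). Under median-of-ratios scaling, which moved the median of all genes from 0.18 to -0.02, it was 0.09 with a limma adjusted p of 0.21. Ccnd3 was also the cyclin found in the most cells: at 10000 UMIs per cell it had a UMI in 97.1% to 99.2% of Mki67-positive and 96.6% to 97.3% of Mki67-negative cells. It had the highest level as well, and the cyclins were not compared at equal level.

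Ccne1, an activating subunit of Cdk2 at the G1 to S transition, was at 97.7, 95.6, 55.7 and 74.6 CPM in Mki67-positive and 10.7, 9.01, 7.26 and 7.29 CPM in Mki67-negative cells. Its relative Ccne2 was at 187, 180, 82.6 and 98.3 CPM in Mki67-positive and 15.6, 13.2, 5.35 and 5.74 CPM in Mki67-negative cells. For both genes the classes lay far apart in every library, and the 2 aged libraries were below the 2 young in each class. The difference was 2.64 for Ccne1 (2.42 to 2.86, limma adjusted p = 4.89e-07) and 3.23 for Ccne2 (3.08 to 3.38, limma adjusted p = 4.03e-08), each higher in 4 of 4 libraries.

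Ccna2, the S phase and early mitotic cyclin, was at 190, 220, 146 and 155 CPM in Mki67-positive cells. In Mki67-negative cells it was at 0.975, 1.25, 0.645 and 0.837 CPM, from 31, 33, 21 and 43 UMIs. No other cyclin was so nearly absent from the negative class. The difference was 4.93 (4.73 to 5.13, limma adjusted p = 2.88e-08, higher in 4 of 4 libraries). Mki67-positive cells held 98.9%, 98.7%, 96.6% and 94.2% of all Ccna2 UMIs of their library.

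Ccnb1, whose promoter with 2 CCAAT boxes is shown above, is the main mitotic partner of Cdk1. It was at 178, 208, 203 and 151 CPM in Mki67-positive and 8.84, 10.8, 10.5 and 5.34 CPM in Mki67-negative cells. Ccnb2, with 3 CCAAT boxes, is the B-type cyclin linked to the Golgi, and was at 145, 161, 212 and 178 CPM against 7.25, 6.80, 5.04 and 3.56 CPM. The positive class was far above the negative in each library, and for Ccnb2 the aged positive cells were above the young. The difference was 3.78 for Ccnb1 (3.65 to 3.92, limma adjusted p = 2.05e-08) and 4.07 for Ccnb2 (3.72 to 4.41, limma adjusted p = 5.27e-07), each higher in 4 of 4 libraries. The mouse annotations list processed copies named Ccnb1-ps, Ccnb2-ps and Ccnd3-ps, so reads of these 3 genes could be shared with near-identical copies and their levels are uncertain to that extent.

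**Figure D2:**
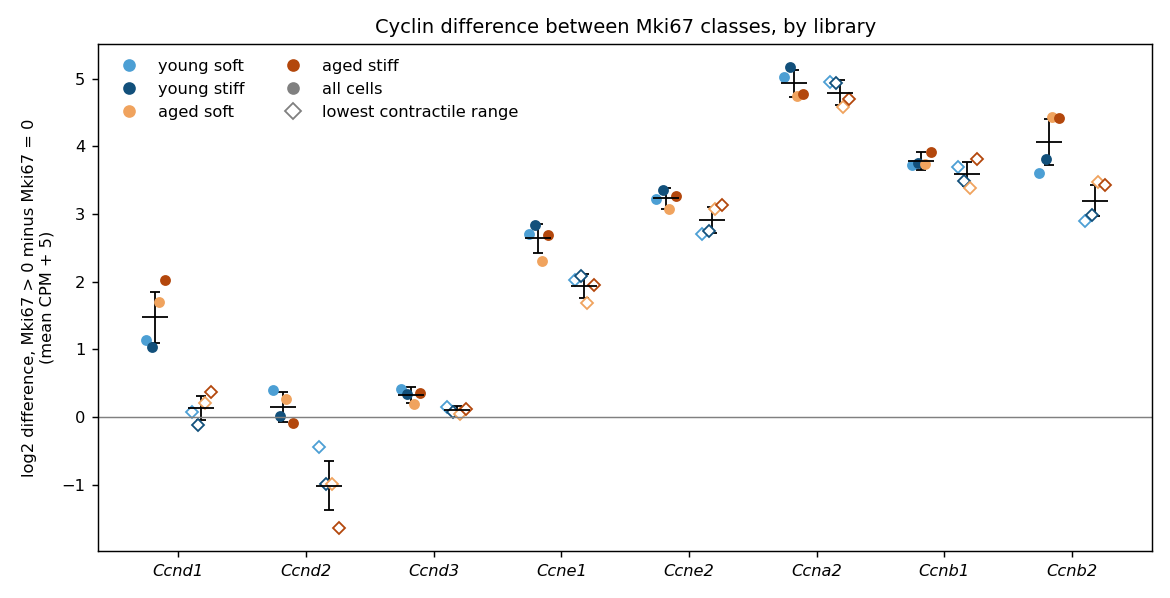
Difference between Mki67-positive and Mki67-negative cells in log2(mean CPM + 5) for each cyclin, with 1 point per library (circles for all cells, open diamonds for cells of the lowest contractile range, described below) and black bars for the limma mean with its 95% interval. Over all cells Ccna2 has the largest mean difference (4.93) and Ccnd2 the smallest (0.15), and in the lowest range Ccnd2 lies below 0 in all 4 libraries.

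Of 59 other listed genes of the cell cycle machinery, 52 were tested, and 38 of these were higher and 7 lower in Mki67-positive cells, with 7 not past the threshold, beside the 50.0% and 25.3% of all genes. All 4 kinases were higher, among them Cdk1, the partner of cyclins A and B (5.07, limma adjusted p = 1.92e-08), and Cdk4, the partner of the D-type (1.55, adjusted p = 7.51e-06). Of 7 kinase inhibitors, 4 were higher and 2 lower, shares near those of all genes. Cdkn1a, which encodes p21 and is known to rise as myoblasts leave the cycle, was lower by the most (-2.03, limma adjusted p = 2.06e-06), and Cdkn1c was also lower (-1.35, adjusted p = 0.00559). Cdkn2a, a D-type kinase inhibitor locus, was higher (1.69, limma adjusted p = 1.26e-06).

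In the Rb family, which holds E2f factors in check, Rbl1 was higher (2.16, limma adjusted p = 5.62e-07), Rb1 lower (-0.85, adjusted p = 6.00e-05) and Rbl2 not called. Of 10 E2f and Dp factors, 9 were higher, led by E2f1 (2.78) and E2f7 (2.52), and the repressor-type E2f4 was lower (-0.67, limma adjusted p = 3.78e-05). All 6 tested kinase subunits, phosphatases and Wee1 kinases were higher, led by Cks2 (3.64) and Cks1b (3.16). Of 5 listed parts or regulators of ubiquitin ligases, 4 were higher, led by Cdc20 (4.74), which targets B-type cyclins for destruction, and the inhibitor Fbxo5 (4.13). Fbxw7, which targets cyclin E, was lower (-0.63, limma adjusted p = 0.000294). Foxm1 (3.19) and Lin9 (1.85), which drive mitotic genes, were 2 of the 4 of 5 higher in their group. Among 12 other cyclins tested, 6 were higher, led by Ccnf (3.0) and Ccni (0.72), 2 lower and 4 not called. Under median-of-ratios scaling the 52 genes were 34 higher and 9 lower, beside 35.8% and 38.5% of all genes.

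Mki67-negative cells were not one state. They were ordered by the share of their UMIs from 16 contractile genes such as Acta1 and Ckm, none of them a cyclin, and cut into a lowest, middle and highest range of equal size over the 4 libraries, at 5.68% and 11.5%. The range is a span of a score and not a cell type, and 96 and 986 of 4924 cells lay within 10% of the lower and upper cut. Ccnd1 was at 97.8, 95, 96.3 and 91.1 CPM in the lowest range, from 0.932 to 1.82 CPM in the middle and from 0.439 to 0.587 CPM in the highest. Its level in the lowest range was near that of Mki67-positive cells. With cuts set within each library, Ccnd1 in the lowest range was at 122, 115, 84.8 and 66.9 CPM, and in the middle at 6.15, 3.54, 1.35 and 1.30 CPM, so the likeness of the ages in the lowest range holds for the pooled cuts alone. Ccnd2 had the same order, at 28.4, 39.8, 39.8 and 54.7 CPM in the lowest range and at most 3.47 CPM above it. Among the D-type cyclins, Ccnd3 fell least in proportion to its level. It went from 729, 810, 605 and 675 CPM in the lowest to 473, 501, 500 and 510 CPM in the highest range. Median depth was lower in the lowest range (22589 to 28244 UMIs) than in the highest (32410 to 40754).

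**Figure D3:**
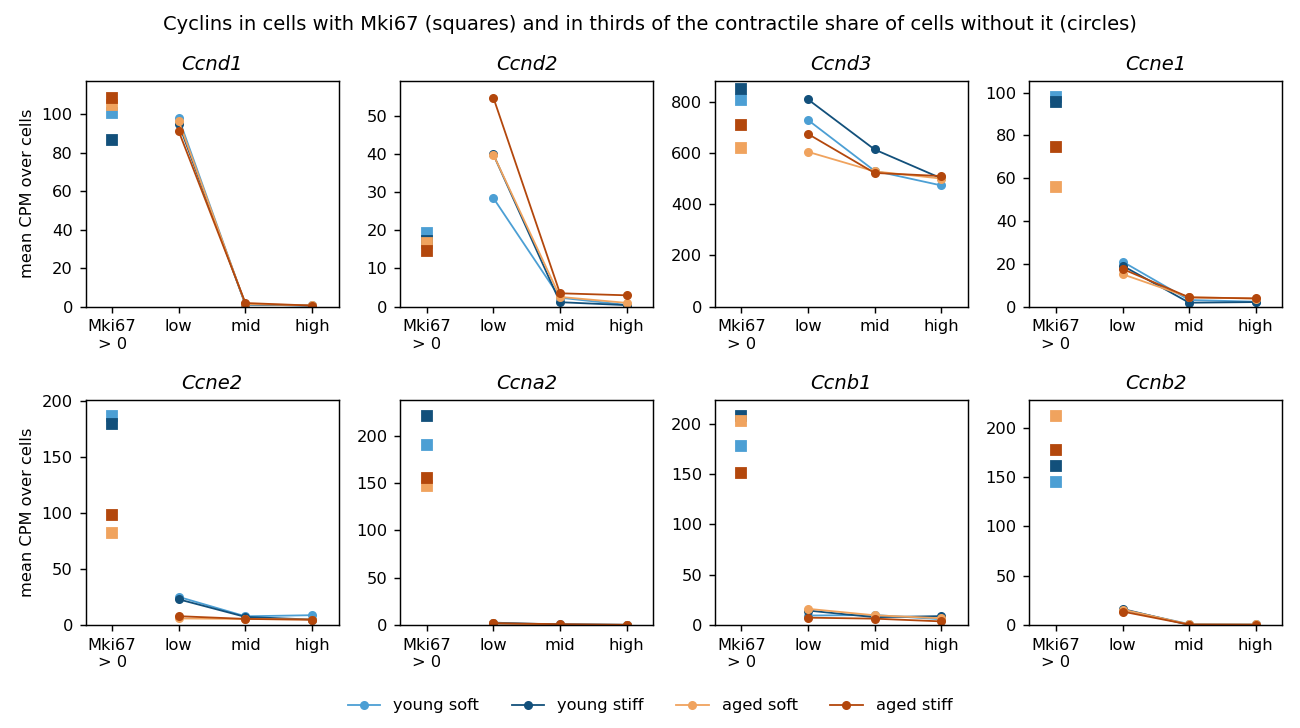
Mean CPM (linear axis) of each cyclin by library, as squares for Mki67-positive cells and as joined circles for Mki67-negative cells of the lowest, middle and highest contractile range. Ccnd1 drops from over 90 CPM in the lowest range to under 2 CPM, while Ccnd3 is never under 473 CPM.

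Of the E-type cyclins, Ccne1 was at 21.0, 19.1, 15.1 and 17.6 CPM in the lowest range and at most 4.33 CPM above it. Ccne2 in the lowest range was at 25.2 and 23.0 CPM in the young libraries and 5.88 and 7.90 CPM in the aged. In the highest range it was at 8.79, 4.86, 4.87 and 4.78 CPM, so the ranges differed less in the aged libraries. Mcm5, a replication licensing gene, was likewise at 20.9 and 23.0 CPM in the young and 6.45 and 8.94 CPM in the aged cells of the lowest range. Myog, the differentiation factor, was at 1639 and 1470 CPM in the young and 2446 and 2698 CPM in the aged cells of that range, and its part in these values was not tested. With cuts set within each library, Myog was at 601, 561, 2535 and 2630 CPM there, and Ccne2 at 31.9, 27.5, 5.95 and 7.42 CPM. Ccnb2 was at 15.6, 16.3, 15.7 and 13.6 CPM in the lowest range and under 1 CPM above it (with cuts within each library, 2.75, 2.34, 0.563 and 0.428 CPM in the middle range), while Ccnb1 kept 5.75, 8.84, 6.72 and 3.61 CPM in the highest range.

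The share of cells with a UMI gives the background for these low levels. At 10000 UMIs per cell, Ccna2 was found in 0%, 0.360%, 0.231% and 0% of the cells of the highest range, where 0 of 209 and 0 of 722 cells allow a share with a UMI, at that depth, of up to 1.44% and 0.416%. Without thinning, the shares in the highest range were 1.44%, 0.717%, 0.694% and 1.25%. In Mki67-negative cells as a whole the Ccna2 share was 1.11%, 1.08%, 0.336% and 0.438%, and in Mki67-positive cells 70.1%, 75.6%, 53.8% and 47.4%. Without thinning, the Ccna2 shares were 84.7%, 85.8%, 67.2% and 63.5% in positive and 2.81%, 1.95%, 1.17% and 2.0% in negative cells. Ccnd1 was found in 37.6%, 38.6%, 35.5% and 30.9% of the cells of the lowest range and in at most 0.970% of the highest. Ccnb1 differed from Ccnb2 in the highest range, with 2.08% to 3.24% of cells against at most 0.463%.

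Mki67-positive cells lay almost wholly in the lowest contractile range (355 of 365, 346 of 353, 123 of 131 and 123 of 137). The classes were therefore also compared within that range, a comparison added after the values were seen, in which 28.2% of genes were higher and 25.8% lower. Ccnd1 was then at 104, 87.5, 112 and 119 CPM in Mki67-positive and 97.8, 95, 96.3 and 91.1 CPM in Mki67-negative cells, and young stiff had the negative class higher. Its difference was 0.14 (-0.04 to 0.31, limma adjusted p = 0.157). The direction of Ccnd2 turned: it was at 19.6, 17.5, 17.6 and 14.2 CPM in Mki67-positive against 28.4, 39.8, 39.8 and 54.7 CPM in Mki67-negative cells. The difference was -1.01 (-1.38 to -0.65, limma adjusted p = 0.000869, lower in 4 of 4 libraries). Ccnd3 stayed slightly higher in the positive class (0.10, limma adjusted p = 0.0247). The E-, A- and B-type cyclins stayed far higher, at 1.94 for Ccne1, 2.92 for Ccne2, 4.79 for Ccna2, 3.60 for Ccnb1 and 3.20 for Ccnb2, with limma adjusted p from 1.66e-09 to 1.83e-07. Of the 52 other cell cycle genes, 32 were higher and 6 lower in this comparison, and E2f4 (-0.15, limma adjusted p = 0.163) and Fbxw7 (0.095, adjusted p = 0.294) were no longer called.

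Within Mki67-positive cells, UMIs of E-type and B-type cyclins were found in partly different cells. A missing UMI at the thinned depth need not mean absent RNA. The shares that independent detection of the types would give were not computed. At 10000 UMIs, 21.9%, 19.3%, 15.4% and 15.3% of these cells had a UMI of an E-type cyclin and none of a B-type. B-type alone was found in 30.7% (26.0 to 35.7), 38.9% (33.8 to 44.2), 46.9% (38.1 to 55.9) and 38.0% (29.8 to 46.6), and both types in 40.5%, 38.9%, 29.2% and 33.6%. Neither was found in 6.85%, 2.84%, 8.46% and 13.1%. The share of E-type alone was lower in both aged libraries, with intervals that overlapped those of the young.

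**Figure D4:**
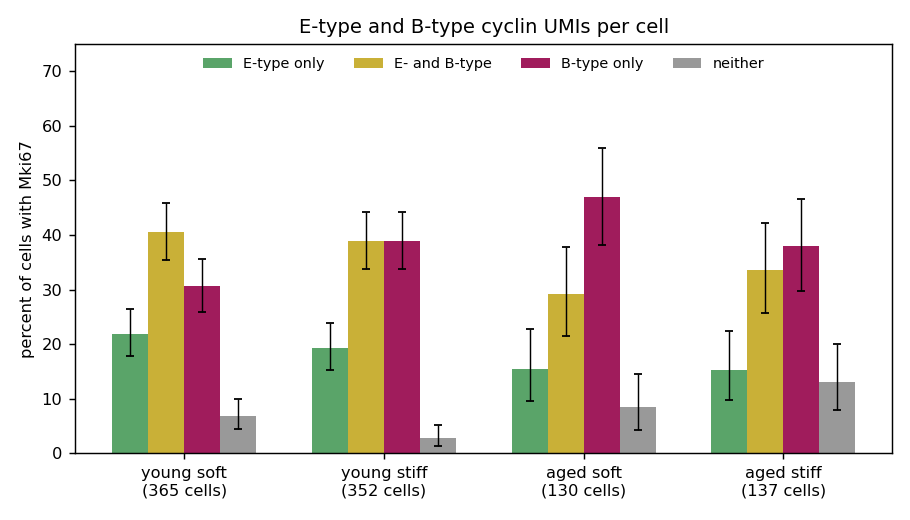
Share of Mki67-positive cells (percent, thinned to 10000 UMIs) with UMIs of E-type cyclins alone, B-type alone, both or neither, by library, with exact binomial intervals. B-type alone is highest in aged soft (46.9%).

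Over the Mki67-positive cells of each library, log2(CPM + 1) of Ccne1 and Ccne2 had a mean Pearson r of 0.60 (0.56 to 0.64 over the 4 libraries). Ccnb1 and Ccnb2 likewise had 0.60 (0.53 to 0.69), while Ccne2 and Ccnb2 had -0.39 (-0.51 to -0.32). Ccna2 followed Ccnb1 (0.62) more than Ccnb2 (0.31), Ccne1 (0.26) or Ccne2 (0.13). The D-type cyclins showed a mean r between -0.12 and 0.22 with every other member in these cells. In single libraries it ran from -0.18 (Ccnd1 with Ccnb2) to 0.32 (Ccnd1 with Ccne1). These are descriptions over cells that share library and depth.

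Over all cells, the genes whose pattern was most like each member were named by the mean within-library r over the 4 libraries. For Ccna2 they were Pbk (0.88), Mki67 (0.87) and Knl1 (0.86), for Ccnb1 Hmmr (0.74), Cenpe (0.72) and Mki67 (0.71), and for Ccnb2 Hmmr (0.80), Cdca3 (0.79) and Mki67 (0.76). For Ccne1 they were Fam111a (0.53), Hist1h1b (0.52) and Clspn (0.51), and for Ccne2 Clspn (0.51), Slfn9 (0.50) and Uhrf1 (0.50). Ccnd1 was most like Tagln2 (0.63), Col4a1 (0.62) and Dpysl3 (0.62), and no cell cycle gene was among these. Ccnd3 (Ppp1r14b 0.40, Pfn1 0.35, Lgals1 0.33) and Ccnd2 (Ccnd1 0.29, Aldh1a2 0.29, Bgn 0.29) had no close match.

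Between the libraries, over all cells, most cyclins were lower in aged than in young cells on both substrates. Ccne2 was at 61.6 and 53.0 CPM in the young soft and stiff libraries and 12.9 and 13.0 CPM in the aged ones. Ccna2 was at 51.7 and 53.6 CPM in the young and 15.0 and 13.0 CPM in the aged, and Ccne1 at 34.0 and 29.7 against 12.0 and 12.6 CPM. Ccnb1 was at 54.2 and 57.8 against 29.4 and 16.8 CPM, Ccnb2 at 44.1 and 43.6 against 25.3 and 17.3 CPM, and Ccnd1 at 58.5 and 51.0 against 36.4 and 29.7 CPM. For these 6 genes both aged libraries were below both young ones. Ccnd3 (660, 711, 549 and 566 CPM) differed less, and Ccnd2 (14.9, 17.0, 13.3 and 15.6 CPM) overlapped between the ages.

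Taking log2 ratios of mean CPM + 5 with genes kept when they reached 20 CPM in 1 or both libraries, 6 of 7 cyclins tested were at least 1.5-fold lower in aged soft than young soft, where 10.7% of all genes were lower and 2.96% higher. In aged stiff against young stiff it was the same count, 6 of 7, with 12.2% of all genes lower and 3.32% higher. Median-of-ratios scaling changed that split of all genes, from 655 lower and 182 higher to 369 and 357 on soft, and from 737 and 201 to 446 and 470 on stiff, and the cyclins at least 1.5-fold lower were then 4 and 5. Of the 6 lower cyclins, 3 on soft and 5 on stiff reached 20 CPM in the young library alone and so had to differ, which makes both counts a description and no support. The log2 ratio on soft and on stiff was -1.89 and -1.69 for Ccne2, -1.51 and -1.70 for Ccna2, -1.20 and -0.98 for Ccne1, and -0.78 and -1.53 for Ccnb1. It was -0.70 and -1.12 for Ccnb2, -0.62 and -0.69 for Ccnd1, and -0.26 and -0.33 for Ccnd3. The ratio of summed UMIs of Ccne2 was 0.204 (0.186 to 0.223) on soft and 0.208 (0.191 to 0.226) on stiff.

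The share of Mki67-positive cells was also smaller in the aged libraries, and its part in these differences was not tested. With 1 library per group, age and this share cannot be told apart. When young cells and aged cells were set to the same Mki67-positive share, an alternative added after the values were seen, 2 of the 7 cyclins were at least 1.5-fold lower on soft, with 3.64% of all genes, and 1 on stiff, with 4.19%. Ccne2 was then -1.1 and -0.82, Ccne1 -0.63 and -0.29, Ccna2 -0.34 and -0.46, and Ccnd1 -0.23 and -0.21. Ccnb2 turned to 0.41 and 0.045, and Ccnb1 was 0.18 on soft and -0.48 on stiff.

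**Figure D5:**
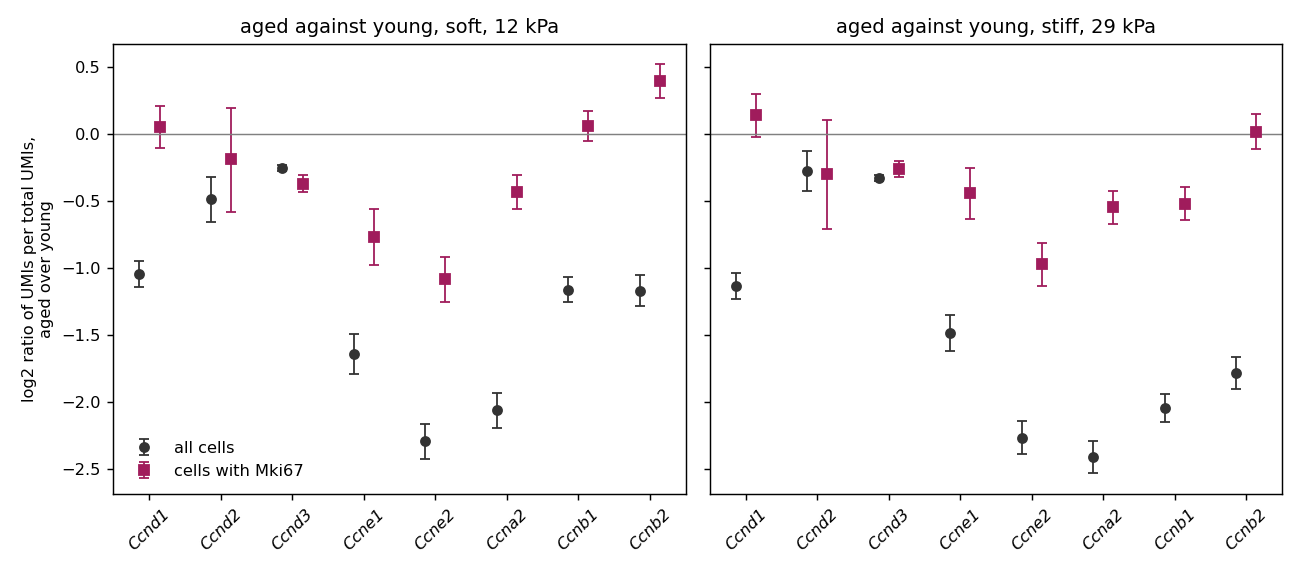
Log2 ratio of summed UMIs per total UMIs, aged over young, for each cyclin on soft and on stiff substrate, over all cells (circles) and over Mki67-positive cells (squares), with intervals for counting error. Ccne2 lies lowest among the squares on both substrates, and Ccnb2 on soft lies below 0 over all cells and above 0 in Mki67-positive cells.

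Within Mki67-positive cells alone, Ccne2 was the cyclin furthest below the young level, at 82.6 against 187 CPM on soft (log2 ratio -1.13) and 98.3 against 180 CPM on stiff (-0.84). Its ratio of summed UMIs was 0.472 (0.420 to 0.529) and 0.509 (0.455 to 0.569). The class was not alike between the ages: its summed markers of differentiating myocytes were at 2722, 2129, 5198 and 6678 CPM. In Mki67-positive cells of the lowest contractile range, Ccne2 was at 192, 183, 86.8 and 108 CPM. Ccne1 was -0.76 on soft and -0.34 on stiff, with UMI ratios of 0.587 (0.508 to 0.677) and 0.735 (0.644 to 0.836). Ccna2 was -0.36 and -0.49, and Mki67 itself -0.31 and -0.56. Ccnb2 was higher in aged soft (0.53, UMI ratio 1.31, 1.21 to 1.43) and near equal on stiff (0.14, UMI ratio 1.01, 0.923 to 1.11). Ccnb1 was 0.18 on soft and -0.45 on stiff, and Ccnd1 0.06 and 0.31. On soft, 2 of 7 cyclins (Ccne1, Ccne2) were at least 1.5-fold lower, with 3.89% of all genes, and on stiff 1 of 7 (Ccne2), with 2.79%. None was 1.5-fold higher, with 2.92% and 3.67% of all genes.

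The share of Mki67-positive cells with Ccne2 at equal depth was 50.7% (45.4 to 55.9), 45.5% (40.2 to 50.8), 24.6% (17.5 to 32.9) and 32.1% (24.4 to 40.6). Without thinning it was 63.3%, 55.0%, 32.8% and 43.1%. The interval of aged soft lay below those of both young libraries, and that of aged stiff met that of young stiff at its edge. Mki67 counts within the class also differed: the median Mki67-positive cell had 13, 12, 7 and 6 Mki67 UMIs. A single one was found in 49 of 365, 40 of 353, 35 of 131 and 34 of 137 cells, a larger share in the aged libraries. Their part in the Ccne2 values was not tested.

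In Mki67-negative cells, 2 cyclins passed the level filter in every comparison, Ccnd1 and Ccnd3. Ccnd1 was at 43.0 against 28.9 CPM on soft (-0.50, with 5.56% of all genes at least 1.5-fold lower) and 39.8 against 22.9 CPM on stiff (-0.68, with 7.30%), so it passed 1.5-fold on stiff, though not with a pseudocount of 20 or median-of-ratios scaling. Neither cyclin was 1.5-fold higher in the aged cells, with 2.12% of all genes on soft and 2.50% on stiff. In the lowest contractile range its levels were 97.8 and 95 CPM in the young and 96.3 and 91.1 CPM in the aged, and with cuts within each library 122 and 115 against 84.8 and 66.9 CPM. The number of Mki67-negative cells in that range was 433 of 995, 466 of 1126, 353 of 1202 and 389 of 1601, so a smaller part of the aged cells lay in it. Ccne2 was under the filter and stood at 15.6 and 13.2 CPM in the young and 5.35 and 5.74 CPM in the aged.

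Substrate stiffness went with smaller differences. In young cells none of 7 cyclins differed by 1.5-fold, with 0.0166% of all genes higher and 0.149% lower on stiff, and their log2 ratios ran from -0.20 (Ccne2) to 0.11 (Ccnd3). In aged cells 1 of 4 cyclins tested, which reached 20 CPM on soft alone, was at least 1.5-fold lower on stiff, with 0.0901% of all genes lower and 0.126% higher. This was Ccnb1, which had 29.4 CPM with the soft and 16.8 CPM with the stiff substrate (-0.66, UMI ratio 0.558, 0.514 to 0.605), and with a pseudocount of 20 it was under 1.5-fold. Ccnb2 was next, at 25.3 and 17.3 CPM (-0.45, UMI ratio 0.646, 0.587 to 0.712), with Ccnd1 at -0.26 and Ccna2 at -0.15. Within Mki67-positive cells no cyclin differed by 1.5-fold between substrates at either age, with 0.945% of genes higher and 0.378% lower in aged cells and 0.0469% and 0.329% in young cells. There, aged Ccnb1 had 203 CPM with the soft and 151 CPM with the stiff substrate (-0.41, UMI ratio 0.759, 0.685 to 0.840). Set to equal Mki67-positive shares, aged Ccnb1 was -0.48 on stiff against soft. In Mki67-negative cells neither of the 2 cyclins above the filter differed by 1.5-fold between substrates, with 0.0345% of genes higher and 0.121% lower on stiff in young cells and 0.111% and 0.0739% in aged cells. Ccnb1 in these cells was under the filter, at 10.5 CPM in aged soft and 5.34 CPM in aged stiff.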

How the data were processed

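Single-cell RNA was measured in 4 libraries, 1 per group, with groups taken from the labels. Cell Ranger 6.1.2 and Partek are named, with no roles, per the submitters' processing notes, and build and annotation are not given in the sources used here. The deposited tables hold log2(CPM + 1) per cell, a unit read from the values, since each cell sums to a common total once the log2 is undone. UMIs were worked back from the steps between values, and 99.95% to 99.96% of values were whole within 0.05 (100% for the cyclins). Total UMIs per library were 50361183, 43961004, 47503841 and 68222677. Cells were kept from 500 genes upward and up to 20% mitochondrial UMIs, and doublets were not removed. Ratios between libraries used a pseudocount of 5 and genes reaching 20 CPM in 1 or both libraries, with exact conditional binomial intervals and no test. These intervals treat UMIs as independent and leave out the spread between cells.

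Mki67 classes were compared with limma 3.58.1 (R 4.3.3, empirical Bayes with trend, two-sided, Benjamini-Hochberg over all genes with a mean of at least 5 CPM, threshold 0.05), tested on simulated data. The simulated data held far fewer changed genes than were called here, so they do not measure how far these p-values hold. Mki67 itself was left out of the test. Mki67-positive means any value above 0, and cells under 10000 UMIs (7, 11, 11 and 2) were left out of thinned shares. The planned quasi-likelihood count test was not run because the deposited unit is log2, and limma voom was used instead. Named genes are the 8 members, Mki67, the markers, up to 2 of the cell cycle list per role with the largest difference between classes, and the 3 genes most correlated with each member. Cdkn1c, Rbl2, E2f4 and Fbxw7 were named after their values were seen. Members and lists were chosen with earlier results of these data known. The libraries share no replicate numbers, and nothing says how many animals each holds, so p-values measure the spread between these 4 libraries. Promoter sequences are from RefSeq. Other settings were another pseudocount, scaling, filters on cells and genes, Mki67 class rules, thinning depths, range cuts and leaving out each library.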

Additional observations from a re-analysis of the deposited data

Results flagged for a closer look

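Stiff against soft went opposite ways in young and aged libraries for 3 cyclins, with counting intervals on either side of 1. These intervals treat UMIs as independent and leave out the spread between cells, so they are too narrow to settle a direction. In aged soft, 55 of 131 Mki67-positive cells held 90.8% of the Ccnb1 UMIs of that class. The interval of Ccna2 over all cells in young libraries began at 1.001. Ccna2 over all cells had a log2 ratio of 0.046 in young and -0.15 in aged libraries, but at equal Mki67-positive shares it was 0.20 in young and 0.073 in aged, and in Mki67-positive cells 0.21 and 0.08, so the opposite sign was lost. In Mki67-positive cells Ccnb1 had 0.22 in young and -0.41 in aged libraries. Ccnb2 in these cells had 0.15 in young and -0.25 in aged libraries. At equal shares over all cells both kept opposite signs, with Ccnb1 at 0.21 and -0.48 and Ccnb2 at 0.11 and -0.24. Opposite signs were not particular to the cyclins, since Mki67 in Mki67-positive cells had 0.14 in young and -0.10 in aged libraries. Each ratio rests on 1 library per group, and the difference between the ages was not tested.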

How the results depend on the processing

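Some values changed sign under other settings. With cells set to the Mki67-positive share of the young library, Ccnb1 on soft was 0.18 and Ccnb2 was 0.41 on soft and 0.045 on stiff, and the cyclins at least 1.5-fold lower in aged cells went from 6 to 2 on soft and from 6 to 1 on stiff, and all genes from 655 to 223 and from 737 to 253; the same setting took the aged stiffness count from 1 to 0. At equal shares Ccna2 in aged stiff against aged soft went from -0.15 to 0.073. With both Mki67 classes in the lowest contractile range, Ccnd2 was -1.01, 1 cyclin was lower where 0 had been, and 2693 genes were higher against 4774. Median-of-ratios scaling raised the genes lower in Mki67-positive cells from 2417 to 3678 and moved the median of all genes from 0.18 to -0.018. It moved the aged against young medians of all genes from -0.12 and -0.13 to 0.044 and 0.047, and the higher and lower counts from 182 and 655 to 357 and 369 on soft and from 201 and 737 to 470 and 446 on stiff. A pseudocount of 20 gave 120 higher and 338 lower on soft, 431 lower on stiff, 0 higher (from 1) for young stiffness and 1 lower (from 5) for aged stiffness; a pseudocount of 1 gave 9 for the last. With no filter on low genes these were 1003 lower on soft, 1129 lower on stiff, 9 lower for aged stiffness, and 5 higher and 15 lower (from 1 and 9) for young stiffness. Among the cyclins, a pseudocount of 20 took the aged stiffness count to 0. In Mki67-negative cells on stiff, the aged against young count of 1 became 0 with a pseudocount of 20 or median-of-ratios scaling and 3 with no filter. In those cells on soft, the count of 0 became 1 with summed UMIs, no filter or the class after thinning, and with no filter the aged stiffness count went from 0 to 1. In Mki67-positive cells on soft, the higher count went from 0 to 1 with the class after thinning or by 2 UMIs. The causes were not tested.

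Leaving out each library kept 7 of 8 cyclins higher in Mki67-positive cells, with 4406 to 4563 genes higher and 2190 to 2292 lower. Depth limits the low cyclins most: Ccna2 in Mki67-negative cells rests on 21 to 43 UMIs per library. No paired analysis was possible because the labels give no replicate numbers that pair the 4 groups, each 1 library; the Mki67 classes were compared within libraries, with the library as block.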

Other observations

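Ccnb1 in Mki67-negative cells sat in few cells, a pattern chosen after the values were seen. Cells with at least 5 Ccnb1 UMIs numbered 22 of 995, 25 of 1126, 25 of 1202 and 21 of 1601, and they held 82.1%, 84.9%, 85.3% and 75.5% of the Ccnb1 UMIs of that class. Ccnb2, the other B-type cyclin, had a UMI in 2, 4, 3 and 1 of them, Ccna2 in 1, 2, 3 and 1, and Cdk1 in 5, 4, 6 and 3. Among Mki67-positive cells with as many Ccnb1 UMIs (146, 152, 55 and 40 cells), Ccnb2 was found in 144, 151, 55 and 40. The Ccnb1-rich Mki67-negative cells had 1621, 2325, 3015 and 2339 CPM of Myog, the differentiation factor, against 536, 446, 372 and 971 CPM in the Mki67-positive ones. High Myog was not particular to them among Mki67-negative cells. Over all Mki67-negative cells it was at 1470 to 2698 CPM in the lowest contractile range of the libraries. In the middle range it was at 1958 to 2407 CPM, and in the highest at 1418 to 1963 CPM. Between 6 and 11 of the Ccnb1-rich Mki67-negative cells per library lay in the lowest contractile range, and their median depth was 46946.5, 31492, 38375 and 50270 UMIs. The part of depth and of reads from near-identical copies such as Ccnb1-ps was not tested.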
